A study of Mus musculus with 9 samples.

Results

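The genes described here encode the sterol sensor of the endoplasmic reticulum (ER) and the transcription factors it controls: Insig1, Insig2, Scap, Srebf1, Srebf2, Mbtps1 and Mbtps2. They were taken by gene symbol, with no rule on their values, though earlier results of these data were known. They are 7 of 55414 features with an Ensembl identifier in the deposited table. All 7 were among the 12860 features with a mean of at least 1 TPM (a level of transcript abundance scaled for transcript length and library total) that were tested. Liver RNA was sequenced from immunodeficient NSG mice after tail vein injections over 5 weeks. Livers came from mice given extracellular vesicles (EVs) of MDA-MB-231 cells, a human triple-negative breast cancer line (3 libraries), EVs of MCF-10A cells, a human non-tumour breast epithelial line (3 libraries), or PBS, the vehicle (3 libraries). The mice of all 3 groups were labelled WT. NSG mice lack mature T, B and natural killer cells but keep macrophages and neutrophils. The sources used here do not give age, sex or EV dose. The labels do not say that libraries of a group came from separate mice, so a p-value here reflects only sample-to-sample spread, which may be technical. Below, a liver of a group stands for 1 library, and n counts libraries.

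SREBP-1 and SREBP-2, encoded by Srebf1 and Srebf2, are made as ER membrane precursors bound to the escort protein SCAP. When sterol is plentiful, the INSIG proteins hold SCAP in the ER; when it is scarce, SCAP carries the precursor to the Golgi in COPII vesicles, where the site-1 protease (Mbtps1) and then the site-2 protease (Mbtps2) release the active factor. In liver SREBP-2 mainly drives cholesterol synthesis and uptake, and SREBP-1c, induced by insulin and by the oxysterol receptor LXR, drives fatty acid synthesis. Insig1 is itself a target of the SREBPs, so its mRNA follows their activity, while a liver form of Insig2 is regulated separately. Cleavage is not visible in mRNA levels.

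The title of the series names miR-9-5p secreted by cancer cells and cholesterol balance, so matches to its seed were looked up in the members. The mature sequence is printed with the seed, bases 2 to 8, in capitals (RefSeq, GRCm38.p6, chr3:88215613-88215635, plus strand). Below it stand the seed matches of 7 or more letters found in the members' 3′ untranslated regions (UTRs), on the mRNA strand, with the match in capitals. The chromosome positions given for them span the whole printed stretch, while the UTR base is the first of the match.
mmu-miR-9-5p: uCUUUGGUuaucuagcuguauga
Mbtps1: agtgacagtgcACCAAAGAcacagagcctg
Insig1: agttacaacaaACCAAAGtgactgagttt
Insig2: gttgtagggacCCAAAGAatactttcccg
Mbtps1 was the 1 member with the longest match, the 8-mer ACCAAAGA, at base 237 of a 623-base UTR (GRCm38, chr8:119508524-119508553, minus strand). Insig1 held the 7-mer ACCAAAG at base 1687 of 1842 (GRCm38, chr5:28078496-28078524, plus strand). Insig2 held the other 7-mer searched, CCAAAGA, at base 574 of 1553 (GRCm38, chr1:121305315-121305343, minus strand). The 6-mer CCAAAG, which lies inside each of these, also occurred alone once each in Insig1, Insig2 and Srebf1. These letters were not in the longest annotated UTRs of Scap, Srebf2 and Mbtps2, which are 149, 1462 and 3148 bases long. Of 11136 tested genes with a UTR, 4.43% held the 8-mer, 13.5% ACCAAAG, 14.9% CCAAAGA and 37.2% the 6-mer, each counted whether or not inside a longer match and on the mRNA strand alone. A match is a description of the letters, and the level of miR-9-5p was not analysed here.

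Depth is unknown, because TPM keeps no read counts. All 8 hepatocyte markers were detected in all 9 libraries. MDA-MB-231 EV 3 and PBS 1 differed from the rest: their log2 levels correlated at 0.916 with each other and at no more than 0.859 with any other library. The gene Mug2 was at 788.7 TPM in MDA-MB-231 EV 3 and 750.06 TPM in PBS 1, and at most 32.14 TPM elsewhere. Xist was at 273.46 and 320.22 TPM in the same order, and at most 74.85 TPM elsewhere. What sets these libraries apart was not tested. MCF-10A EV 1 had the highest summed levels of neutrophil markers (5294 TPM), erythroid markers (16023 TPM) and Kupffer cell markers (2134.56 TPM). Adipocyte markers summed to 335.69 TPM in PBS 2 and to at most 6.66 TPM elsewhere. The part of these cells in the levels below was not tested. All 6059 assembled loci without an Ensembl identifier were at 0 in the 3 MCF-10A EV libraries, and took 1.21% to 5.70% of TPM in the other 6. Further, 24 Ensembl features were at 0 in all MCF-10A EV libraries with at least 1 TPM in all others, and 7 had the reverse pattern, against 1 and 0 for MDA-MB-231 EV and 0 and 0 for PBS. How the MCF-10A EV values came to differ in this way is not stated, and in both comparisons that use them this difference in the table and the treatment cannot be told apart. In these bulk libraries fewer cells of a type and less RNA per cell cannot be told apart either.

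On the TPM scale, Insig1, Srebf1 and Insig2 were the most abundant members, at means over 9 libraries of 74.0, 68.3 and 63.0 TPM. Mbtps1 (21.98 TPM), Scap (21.4 TPM) and Srebf2 (15.6 TPM) followed, and Mbtps2 was lowest at 3.73 TPM. Neighbours in this order did not separate beyond the spread at the top: Insig1 exceeded Srebf1 in 6 of 9 libraries, and Srebf1 exceeded Insig2 in 5. Insig2 exceeded Mbtps1, and Srebf2 exceeded Mbtps2, in 9 of 9 libraries. Mbtps1 exceeded Scap in 3 of 9 libraries, and Scap exceeded Srebf2 in 7. The coefficient of variation over all libraries was largest for Mbtps1 (65.2%) and Insig1 (64.9%) and smallest for Srebf2 (25.6%).

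**Figure D1:**
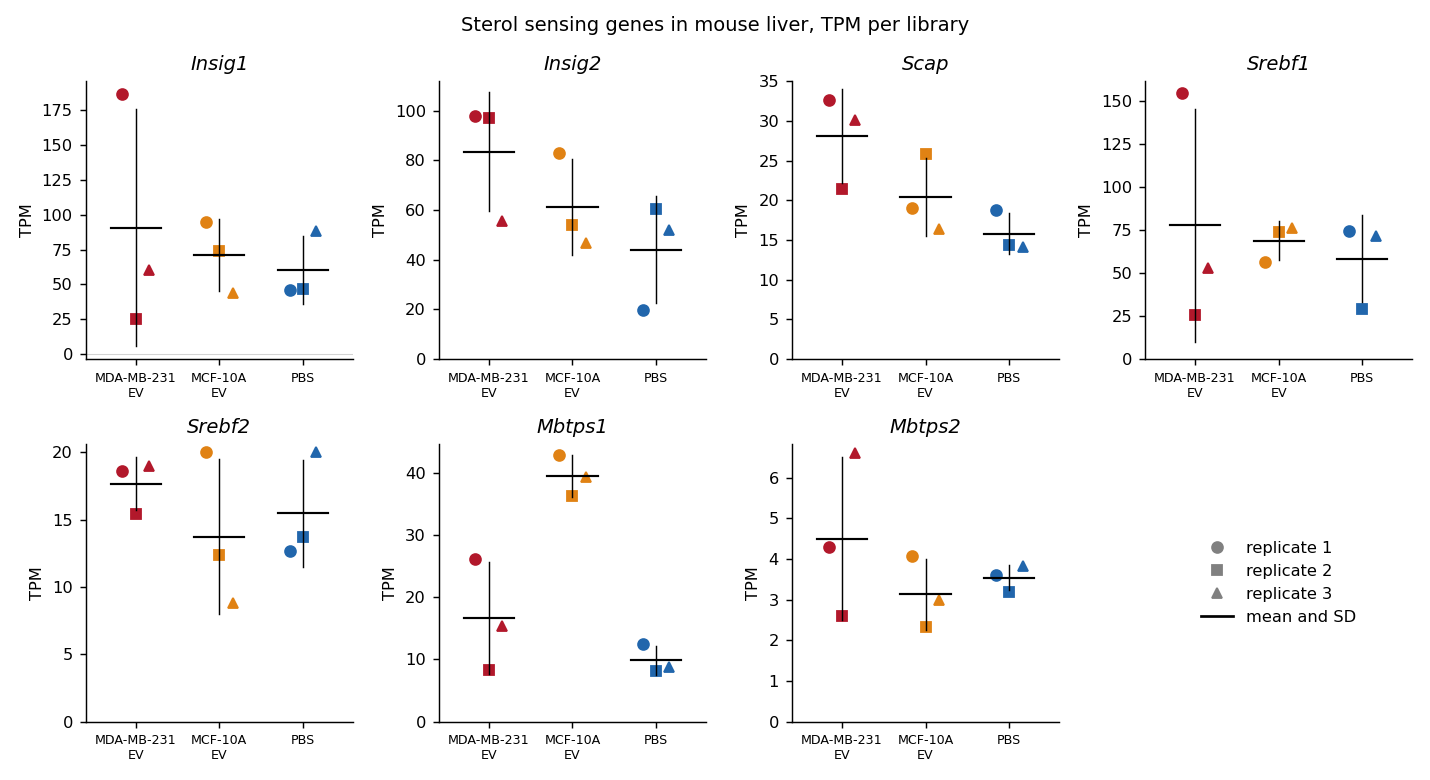
Level of each member in TPM (linear axis) in every library, with groups MDA-MB-231 EV, MCF-10A EV and PBS from left to right. Points are libraries, with the mean and SD of each group. The 3 MCF-10A EV points of Mbtps1, at 36.2 to 42.9 TPM, sit above all other libraries, while the groups of most other members overlap.

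No member passed an adjusted p of 0.05 in any comparison by limma's moderated test on log2(TPM + 1), a scale that understates changes of low genes. That is 0 of 7 for MDA-MB-231 EV against PBS (0.00% of all features called), 0 of 7 for MDA-MB-231 EV versus MCF-10A EV (0.218% called) and 0 of 7 for MCF-10A EV against PBS (0.194% called). At an unadjusted p under 0.05 the counts were 0, 1 and 1 of 7, and over all features 1.55%, 3.83% and 3.20%. In each of the last 2 that member was Mbtps1.

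Insig1, the anchor that is also an SREBP target, was at 187, 25.0 and 60.2 TPM in MDA-MB-231 EV livers 1, 2 and 3, at 95.1, 74.2 and 43.8 TPM in MCF-10A EV livers, and at 46.0, 46.6 and 88.3 TPM in PBS livers. The MDA-MB-231 EV group held both the highest and the lowest of the 9 values, and all groups overlapped. Its log2 difference was 0.19 ± 0.67 (SE) for MDA-MB-231 EV against PBS, with a 95% interval of -1.28 to 1.67. This value turned on single libraries: it was -0.55 without MDA-MB-231 EV 1 and 0.88 without MDA-MB-231 EV 2. The difference was -0.04 ± 0.67 for MDA-MB-231 EV versus MCF-10A EV, and it was 0.23 ± 0.67 for MCF-10A EV against PBS.

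Insig2, the anchor that is not under the same SREBP control, was at 97.8, 97.0 and 55.8 TPM in MDA-MB-231 EV livers, at 83.1, 54.0 and 46.7 TPM in MCF-10A EV livers, and at 19.8, 60.5 and 51.8 TPM in PBS livers. MDA-MB-231 EV 1 and 2 were above all other libraries, but MDA-MB-231 EV 3 lay below PBS 2, so the groups overlapped. The log2 difference of 1.01 ± 0.50 for MDA-MB-231 EV against PBS was the largest of any member in that comparison and had a 95% interval of -0.09 to 2.11 (limma adjusted p = 1). It was 0.52 without PBS 1, the library with the lowest Insig2. PBS 1 also had the highest mitochondrial share, 27.1% of TPM, and with mitochondrially encoded genes left out the difference was 0.89. For MDA-MB-231 EV versus MCF-10A EV it was 0.44 ± 0.50, and for MCF-10A EV against PBS 0.57 ± 0.50, the last being 0.08 without PBS 1.

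Scap, which escorts the SREBP precursors, was at 32.7, 21.5 and 30.2 TPM in MDA-MB-231 EV livers, at 19.0, 25.8 and 16.4 TPM in MCF-10A EV livers, and at 18.8, 14.4 and 14.2 TPM in PBS livers. Every MDA-MB-231 EV liver was above every PBS liver, while MCF-10A EV livers overlapped with both. Scap was the 1 member whose MDA-MB-231 EV and PBS groups did not overlap, a pattern that 5.23% of all features had in this direction. The means were 28.1 ± 5.88 TPM in MDA-MB-231 EV livers and 15.8 ± 2.6 TPM in PBS livers (SD, n = 3 each). The log2 difference was 0.78 ± 0.36 with a 95% interval of -0.01 to 1.58 (limma adjusted p = 1), against a median of 0.21 over all features. It lay between 0.67 and 0.96 when any single library was left out and was 0.85 without both PBS 1 and MDA-MB-231 EV 3. It was 0.52 after quantile normalization, which lowered the median of all features by 0.17. Scap differed by 0.45 ± 0.36 for MDA-MB-231 EV versus MCF-10A EV, and by 0.34 ± 0.36 for MCF-10A EV against PBS.

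Srebf1 was at 154, 25.8 and 53.0 TPM in MDA-MB-231 EV livers, at 56.2, 74.1 and 76.3 TPM in MCF-10A EV livers, and at 74.2, 29.3 and 71.4 TPM in PBS livers. As for Insig1, MDA-MB-231 EV 1 was the highest and MDA-MB-231 EV 2 the lowest of the 9 libraries. The log2 difference for MDA-MB-231 EV against PBS was 0.15 ± 0.62, and it was -0.53 without MDA-MB-231 EV 1 and 0.74 without MDA-MB-231 EV 2. It was -0.19 ± 0.62 for MDA-MB-231 EV versus MCF-10A EV and 0.34 ± 0.62 for MCF-10A EV against PBS. The gene-level values join the SREBP-1a and SREBP-1c transcripts.

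Srebf2 varied least among the members by coefficient of variation. It was at 18.6, 15.4 and 19.0 TPM in MDA-MB-231 EV livers, at 20.0, 12.4 and 8.83 TPM in MCF-10A EV livers, and at 12.7, 13.7 and 20.0 TPM in PBS livers. The groups overlapped, and the MCF-10A EV group held the lowest value and, tied with PBS 3, the highest. The log2 difference was 0.20 ± 0.39 for MDA-MB-231 EV against PBS, 0.41 ± 0.39 for MDA-MB-231 EV versus MCF-10A EV and -0.21 ± 0.39 for MCF-10A EV against PBS.

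Mbtps1, the site-1 protease, which makes the first cut of the SREBP precursors, had the clearest group pattern of the 7. It was at 26.2, 8.28 and 15.4 TPM in MDA-MB-231 EV livers, at 42.9, 36.2 and 39.3 TPM in MCF-10A EV livers, and at 12.6, 8.20 and 8.79 TPM in PBS livers. All 3 MCF-10A EV livers were above all 6 others, as was true of 0.677% of all features, while MDA-MB-231 EV and PBS livers overlapped. The means were 16.6 ± 9.01 TPM in MDA-MB-231 EV livers, 39.5 ± 3.34 TPM in MCF-10A EV livers and 9.85 ± 2.36 TPM in PBS livers (SD, n = 3 each).

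For MCF-10A EV against PBS, the log2 difference of Mbtps1 was 1.92 ± 0.43 with a 95% interval of 0.96 to 2.88, the 61st smallest p of 12860 features, but it did not pass the adjustment (limma adjusted p = 0.248). For MDA-MB-231 EV versus MCF-10A EV it was -1.33 ± 0.43 with an interval of -2.29 to -0.37 (limma adjusted p = 0.924). These comparisons share the MCF-10A EV libraries. For MDA-MB-231 EV against PBS it was 0.59 ± 0.43 with an interval of -0.37 to 1.55 (limma adjusted p = 1). Leaving out any single library kept the MCF-10A EV against PBS difference between 1.81 and 2.09, with adjusted p-values from limma of 0.136 to 0.906, and weighting libraries by their spread (limma array weights) brought it to 2.001 with an adjusted p of 0.000248; with these weights 548 of 12860 features were called in that comparison, against 25 without them. The difference was 2.09 without both PBS 1 and MDA-MB-231 EV 3. Neutrophil markers summed to 27.5, 30.8 and 211 TPM in MDA-MB-231 EV livers, 5294, 28.7 and 183 TPM in MCF-10A EV livers, and 31.5, 78.8 and 19.5 TPM in PBS livers; their part in the Mbtps1 levels was not tested. The zero patterns that set the MCF-10A EV values apart cannot be told apart from the treatment here.

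Mbtps2, the site-2 protease, which makes the second, intramembrane cut, was at 4.29, 2.61 and 6.62 TPM in MDA-MB-231 EV livers, at 4.07, 2.34 and 2.99 TPM in MCF-10A EV livers, and at 3.62, 3.20 and 3.82 TPM in PBS livers. The groups overlapped and MDA-MB-231 EV 3 was the highest. Its log2 differences were 0.21 ± 0.39 for MDA-MB-231 EV against PBS, 0.37 ± 0.39 for MDA-MB-231 EV versus MCF-10A EV and -0.16 ± 0.39 for MCF-10A EV against PBS.

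**Figure D2:**
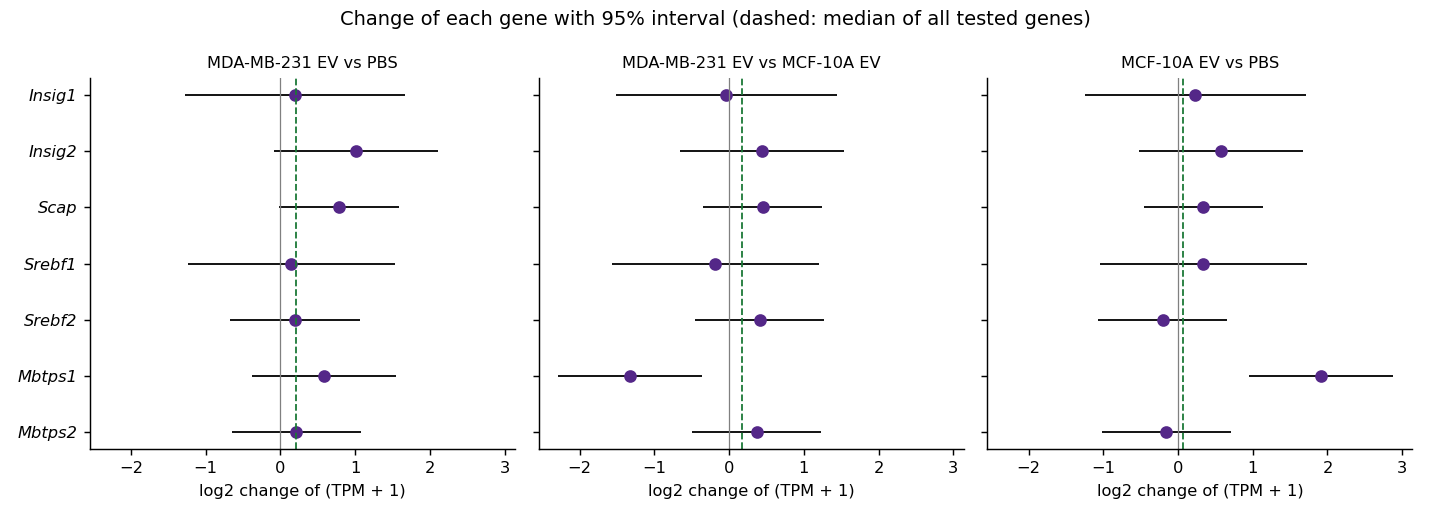
Log2 difference of each member on the log2(TPM + 1) scale with its 95% interval from limma, for the 3 comparisons. Only the intervals of Mbtps1 for MDA-MB-231 EV versus MCF-10A EV (-2.29 to -0.37) and for MCF-10A EV against PBS (0.96 to 2.88) lie clear of 0; neither passed the adjustment over all features.

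The share of all features whose groups did not overlap was 5.23% higher and 0.801% lower for MDA-MB-231 EV against PBS, with 1 and 0 of the 7 members. It was 4.73% higher and 1.80% lower for MDA-MB-231 EV versus MCF-10A EV, with 0 and 1 members, and 2.95% higher and 4.74% lower for MCF-10A EV against PBS, with 1 and 0 members; the last 2 counts of 1 are Mbtps1.

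As a list, 7 of 7 members were above 0 for MDA-MB-231 EV against PBS, where 69.7% of all features were, and 4 of 7 exceeded the median of all features. Their median was 0.21, the same to 2 decimals as that of all features. For MDA-MB-231 EV versus MCF-10A EV, 4 of 7 were above 0 against 65.0% of all features, with medians of 0.37 for the members and 0.17 for all features. For MCF-10A EV against PBS, 5 of 7 were above 0 against 56.8% of all features, with medians of 0.34 for the members and 0.07 for all features.

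Ratios within a library do not depend on the library total. The Mbtps1 to Mbtps2 ratio of TPM was 6.10, 3.17 and 2.33 in MDA-MB-231 EV livers, 10.5, 15.5 and 13.1 in MCF-10A EV livers, and 3.47, 2.56 and 2.30 in PBS livers. All MCF-10A EV livers were above the rest, and the geometric means were 3.56 in MDA-MB-231 EV, 12.9 in MCF-10A EV and 2.73 in PBS livers. An exact permutation test over the 3 groups gave p = 0.0214, and 0.0857 after adjustment over the 4 ratios tested; the smallest p this design allows is 0.00357. Without MDA-MB-231 EV 3 the adjusted exact p was 0.0429, the lowest with any single library left out; the highest was 0.229.

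The Insig1 to Insig2 ratio was 1.91, 0.258 and 1.08 in MDA-MB-231 EV livers, 1.14, 1.37 and 0.937 in MCF-10A EV livers, and 2.33, 0.769 and 1.70 in PBS livers. Which INSIG mRNA was more abundant thus differed between libraries of every group (adjusted exact p = 0.9). The Srebf1 to Srebf2 ratio was above 1 in all 9 libraries, at 8.28, 1.68 and 2.79 in MDA-MB-231 EV livers, 2.80, 6.0 and 8.64 in MCF-10A EV livers, and 5.84, 2.14 and 3.57 in PBS livers (adjusted exact p = 0.9). Scap was below the sum of both INSIGs in every library, at a ratio of 0.101 to 0.285 over the 9 libraries (adjusted exact p = 0.961).

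**Figure D3:**
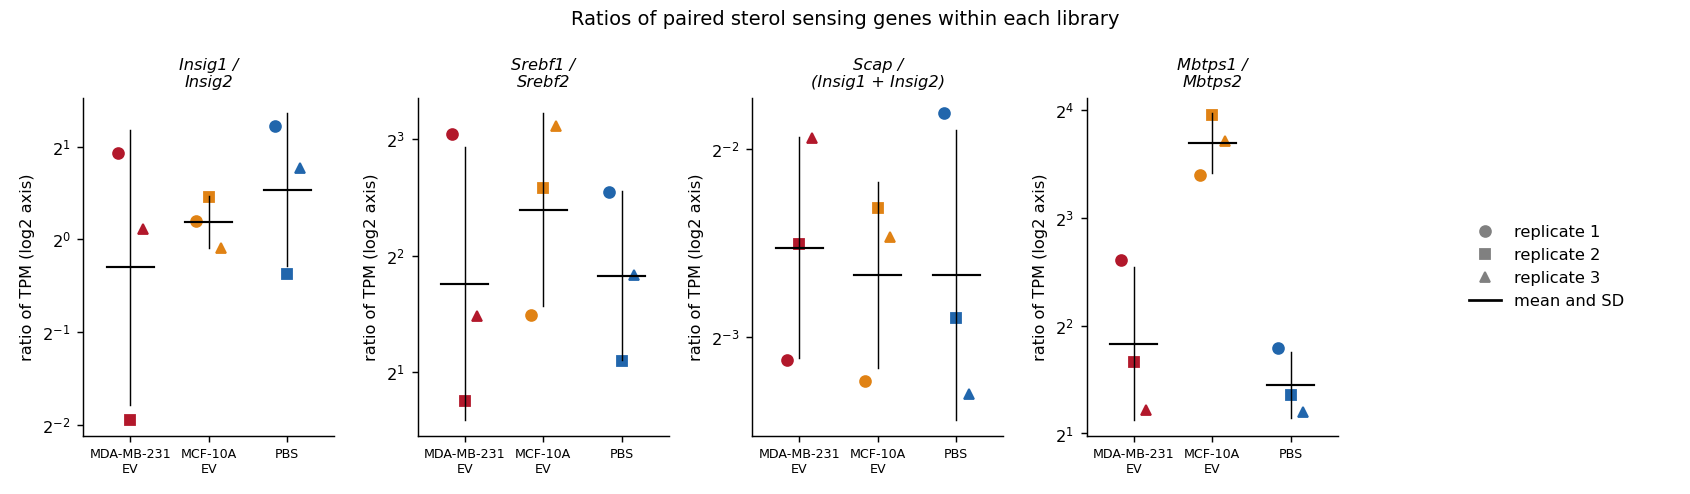
Ratio of TPM between paired members within each library (log2 axis), with groups MDA-MB-231 EV, MCF-10A EV and PBS from left to right; points are libraries, with the mean and SD of the log2 ratios of each group. The Mbtps1 to Mbtps2 ratio is above 10 in all 3 MCF-10A EV livers and at most 6.10 elsewhere.

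Over the 9 libraries, 18 of 21 correlations between members were positive, and 0 passed an adjusted exact permutation p of 0.05. The 1 pair with an unadjusted p under 0.05 was Insig1 with Srebf1, with a Pearson r of 0.78 (exact permutation p = 0.0175, adjusted 0.368) and a Spearman rho of 0.33 (exact permutation p = 0.385, adjusted 0.718). The relation rested on the extreme libraries, since r was 0.20 without MDA-MB-231 EV 1 and 2. Both genes were highest of all 9 libraries in MDA-MB-231 EV 1 and lowest in MDA-MB-231 EV 2, as were 3.92% of all features; this pattern was singled out after the values were seen. MDA-MB-231 EV 2 also had the fewest features above 0, 17403, and the lowest Malat1, 5.66 TPM.

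Among the SREBP-2 type targets, Hmgcs1, the cytosolic HMG-CoA synthase of cholesterol synthesis, was at 96.5, 55.0 and 222 TPM in MDA-MB-231 EV livers, at 180, 201 and 189 TPM in MCF-10A EV livers, and at 419, 84.2 and 261 TPM in PBS livers. PBS 1 was the highest and MDA-MB-231 EV 2 the lowest, and the MDA-MB-231 EV and PBS groups overlapped. Its log2 difference for MDA-MB-231 EV against PBS was -0.98 ± 0.65 (limma adjusted p = 1), and it was -0.48 without PBS 1 and -1.63 without PBS 2. Sqle, the squalene epoxidase of the same pathway, was at 22.1, 19.8 and 17.0 TPM in MDA-MB-231 EV livers, at 49.95, 16.3 and 12.02 TPM in MCF-10A EV livers, and at 11.1, 15.1 and 29.1 TPM in PBS livers, and its groups overlapped too. Its log2 difference for MDA-MB-231 EV against PBS was 0.18 ± 0.55 (limma adjusted p = 1). Hmgcs1 was the lowest of the 24 tested targets in this comparison, where 3 were below 0. Pmvk and Fdft1, with the smallest unadjusted limma p-values of the list, were higher, at 1.05 ± 0.48 and 1.16 ± 0.59. Without PBS 1 these were 0.66 and 0.68.

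Of the whole list of SREBP-2 type targets, 0 of 24 were called in any comparison. Above 0 were 21 of 24 for MDA-MB-231 EV against PBS (median 0.33), 13 of 24 for MDA-MB-231 EV versus MCF-10A EV (median 0.09) and 20 of 24 for MCF-10A EV against PBS (median 0.36). Over all features 69.7%, 65.0% and 56.8% were above 0 in these comparisons, with medians of 0.21, 0.17 and 0.07. Of 18 SREBP-1 type targets, 0 were called, and 16, 12 and 13 were above 0 in these comparisons, with medians of 0.40, 0.23 and 0.19. Scd1, the stearoyl-CoA desaturase, was at 633, 850 and 634 TPM in MCF-10A EV livers and at 262, 409 and 314 TPM in PBS livers, without overlap, as were 2.95% of all features in this direction. Its log2 difference was 1.11 ± 0.44 (limma adjusted p = 1, and 0.0147 with array weights). In MDA-MB-231 EV livers Scd1 was at 686, 580 and 289 TPM, overlapping with both other groups. Acacb, the mitochondrial acetyl-CoA carboxylase, was at 20.6, 23.2 and 42.8 TPM in MDA-MB-231 EV livers and at 5.84, 15.5 and 9.39 TPM in MCF-10A EV livers, without overlap, as were 4.73% of all features in this direction. Its log2 difference was 1.43 ± 0.56 (limma adjusted p = 1). In PBS livers Acacb was at 58.4, 14.9 and 20.2 TPM. Against PBS its log2 difference was 0.06 for MDA-MB-231 EV and -1.36 for MCF-10A EV. The treatment and the zero patterns of the MCF-10A EV values cannot be told apart here either. At an unadjusted limma p under 0.05 stood 0 of the 24 SREBP-2 type targets in each comparison, and 0, 1 and 2 of the 18 SREBP-1 type targets, beside 1.55%, 3.83% and 3.20% of all features.

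Proteins that act on the sensor in the ER, the ubiquitin ligases and their partners in sterol-regulated degradation, had the highest list median for MDA-MB-231 EV against PBS, 0.68 over 14 genes, of which 12 were above 0. None was called, and 2 of 14 had an unadjusted limma p under 0.05, beside 1.55% of all features; for MDA-MB-231 EV versus MCF-10A EV it was also 2 of 14, beside 3.83%. Among them, in both comparisons, was Marchf6, an ER ubiquitin ligase. Marchf6 was at 29.7, 17.7 and 32.3 TPM in MDA-MB-231 EV livers, at 17.8, 8.42 and 12.9 TPM in MCF-10A EV livers, and at 9.72, 12.2 and 12.3 TPM in PBS livers. All MDA-MB-231 EV livers were above all PBS livers, a pattern of 5.23% of all features, with a log2 difference of 1.11 ± 0.40 (limma adjusted p = 1). In the same comparison Rnf139, a ligase that binds INSIG, had a difference of 0.88 ± 0.45, and Rnf145, a ligase for SCAP, one of 0.87 ± 0.61. Without MDA-MB-231 EV 1 these were 0.52 for Rnf139 and 0.35 for Rnf145. The list median was 0.32 for MDA-MB-231 EV versus MCF-10A EV and 0.25 for MCF-10A EV against PBS.

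The COPII coat and Golgi retention genes, which move SCAP, had medians of 0.15, 0.16 and -0.01 over 14 genes for MDA-MB-231 EV against PBS, MDA-MB-231 EV versus MCF-10A EV and MCF-10A EV against PBS. Among them Spring1, a Golgi protein that the site-1 protease needs, was at 4.52, 4.96 and 4.04 TPM in MDA-MB-231 EV livers, at 2.90, 2.36 and 2.55 TPM in MCF-10A EV livers, and at 3.23, 5.09 and 3.56 TPM in PBS livers. All MCF-10A EV livers were thus below the rest for Spring1, a pattern of 2.15% of all features. Its log2 differences were 0.61 ± 0.34 for MDA-MB-231 EV versus MCF-10A EV and -0.45 ± 0.34 for MCF-10A EV against PBS (limma adjusted p = 1). The treatment and the zero patterns of the MCF-10A EV values cannot be told apart for Spring1. Other substrates of the site-1 protease, with or without the site-2 protease, had medians of 0.53, 0.17 and 0.06 over 6 genes. Among them were Atf6b and Creb3l3 at 0.64 ± 0.50 and 0.60 ± 0.43 for MDA-MB-231 EV against PBS. Creb3l3 was at 0.21 without MDA-MB-231 EV 1.

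Genes of nuclear SREBP turnover and co-regulation had medians of 0.12, 0.09 and 0.20 over 12 genes in the same order of comparisons. Mtor, the kinase of the complex that promotes SREBP activity, was at 13.99, 12.6 and 17.9 TPM in MDA-MB-231 EV livers, at 5.30, 3.76 and 2.83 TPM in MCF-10A EV livers, and at 18.3, 10.7 and 12.8 TPM in PBS livers. All MCF-10A EV livers were below the rest, a pattern of 2.15% of all features. Its log2 differences were 1.69 ± 0.37 for MDA-MB-231 EV versus MCF-10A EV (limma adjusted p = 0.273) and -1.59 ± 0.37 for MCF-10A EV against PBS (limma adjusted p = 0.279, and 0.000362 with array weights). As for Mbtps1, the treatment and the zero patterns of the MCF-10A EV values cannot be told apart. The LXR and insulin inputs to Srebf1 had medians of 0.46, 0.43 and -0.01 over 10 genes, among them Bhlhe40 at 1.28 ± 0.73 and Rxra at 0.71 ± 0.52 for MDA-MB-231 EV against PBS. Without MDA-MB-231 EV 1 these were 0.58 for Bhlhe40 and 0.17 for Rxra. No gene of these lists was called. At an unadjusted limma p under 0.05 stood Sec24c, a COPII cargo adaptor, for MDA-MB-231 EV versus MCF-10A EV (1.17 ± 0.45), 1 of 14 in its list. Mtor did so in both comparisons given, 1 of 12 in its list each time. Over all features the shares were 3.83% for MDA-MB-231 EV versus MCF-10A EV and 3.20% for MCF-10A EV against PBS. The lists of LXR and insulin inputs and of other protease substrates held 0 in each comparison.

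**Figure D4:**
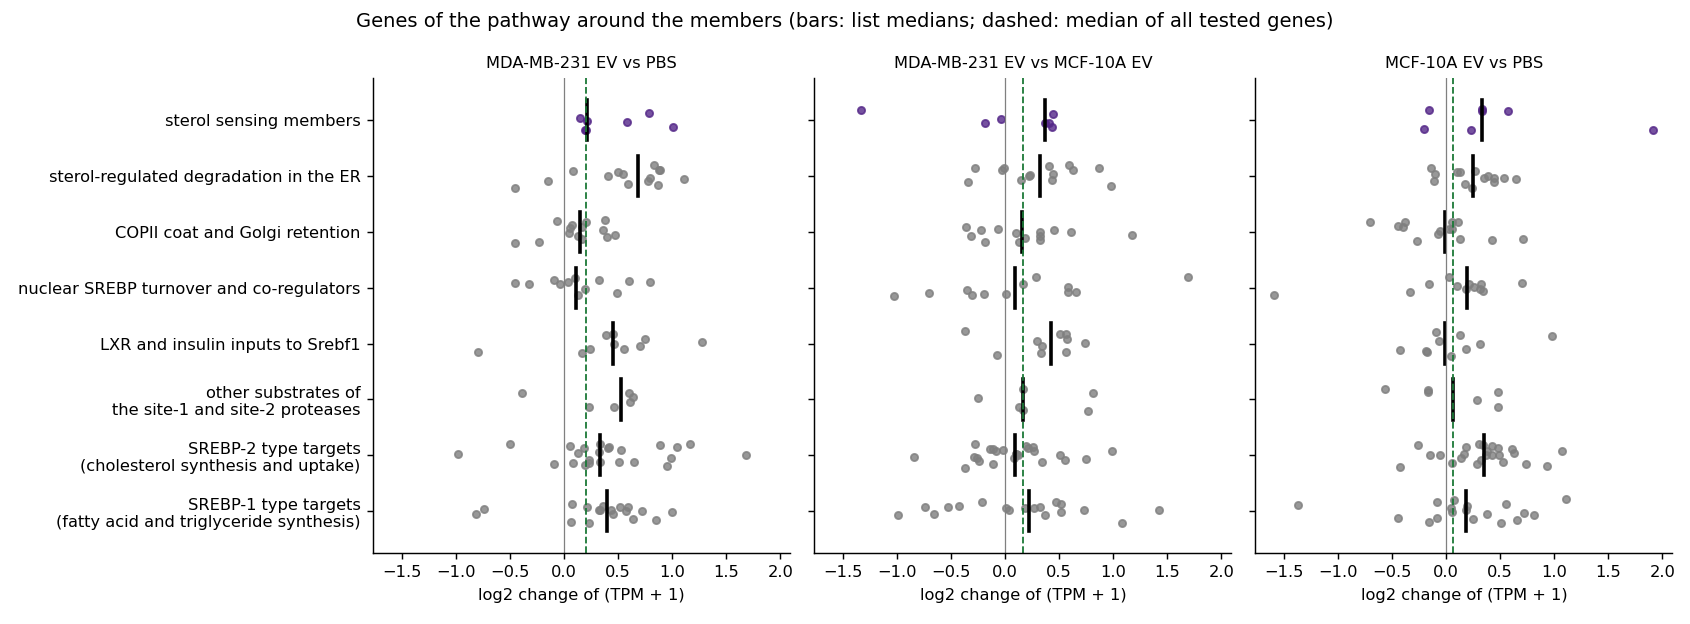
Log2 difference of each gene, on the log2(TPM + 1) scale, by list and comparison, with list medians and the median of all tested features. The ER degradation list has the highest median for MDA-MB-231 EV against PBS, 0.68, against 0.21 over all features.

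The tested genes whose log2(TPM + 1) followed each member most closely over the 9 libraries were picked as the highest of all correlations computed and carry no p. For Mbtps1 they were Mdc1, a DNA damage checkpoint mediator (r = 0.98), and Ap1b1, a clathrin adaptor subunit (r = 0.96). For Insig1 they were Ttc8 (0.96) and Aagab (0.95), and for Insig2 Cyb561d2 and the ribosomal protein gene Rpl7a, whose reads can be shared with pseudogenes (0.97 each). For Scap they were Snx21 (0.95) and Mettl22 (0.93), for Srebf1 Hsf2 (0.95) and Cecr2 (0.94), for Srebf2 Src (0.96) and Drg1 (0.93), and for Mbtps2 Lrrk1 (0.98) and Senp7 (0.96).

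**Figure D5:**
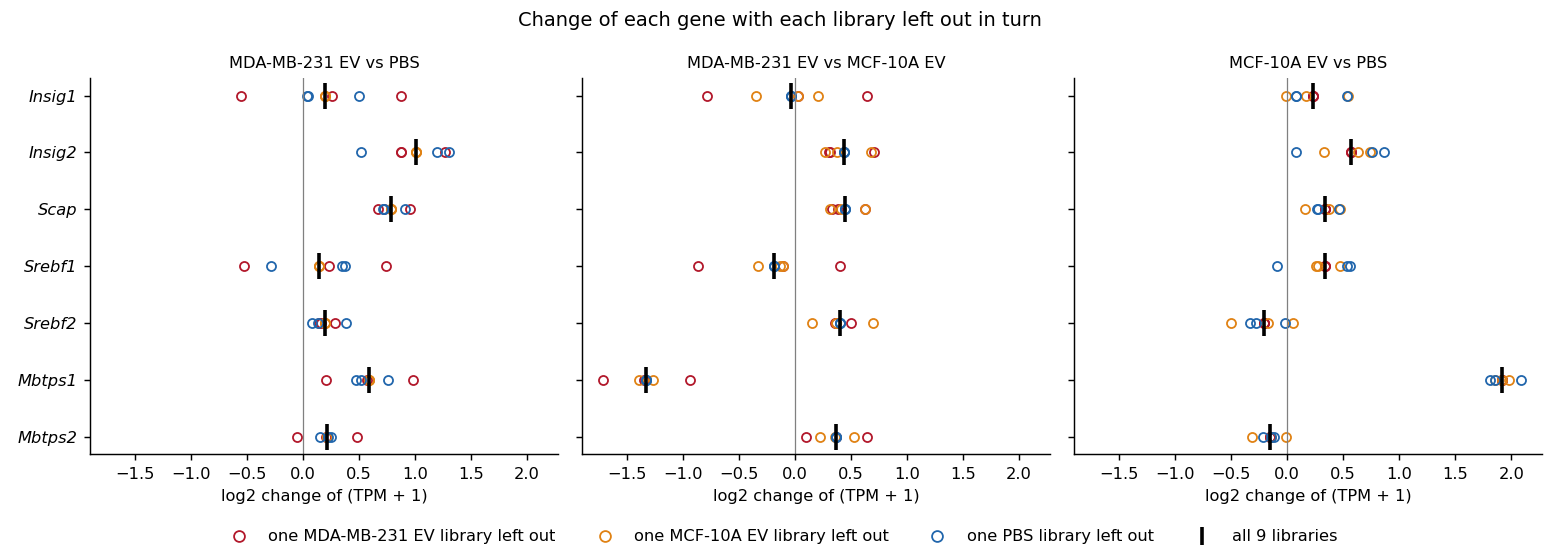
Log2 difference of each member in all 9 libraries and when each single library was left out. Mbtps1 for MCF-10A EV against PBS stays between 1.81 and 2.09, whereas Insig1 for MDA-MB-231 EV against PBS runs from -0.55 to 0.88.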

How the data were processed

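The authors deposited 1 table of TPM per gene for the 9 liver libraries; per the labels' protocols the libraries were made with a TruSeq RNA kit from 1 μg of total RNA. HISAT2, StringTie, RSEM and the GRCm39 build are named in the submitters' processing notes, without versions or roles. No counts are in the table, so depth and strand use are not known here, and no count model was used. The 55414 Ensembl features of 61473 were kept, and the 12860 averaging 1 TPM or more were fitted as log2(TPM + 1) with limma 3.58.1 (R 4.3.3): a mean per group over all 9 libraries, moderated two-sided tests with a trended prior, and Benjamini-Hochberg adjustment within each comparison. Calls needed an adjusted p under 0.05. The fit was tested on simulated data with less spread than these libraries and planted changes larger than that of any member. That test does not show how well changes of the members' size would be found. Ratios and correlations between members used exact permutation tests. UTR matches used the longest annotated protein-coding UTR of GENCODE M21 on GRCm38, a different build from the authors'. No 2 libraries held identical values.

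The members and gene lists were chosen with earlier results of these data known. Named genes were the 7 members, the 2 smallest unadjusted p-values per list and comparison, 11 fixed pathway genes, and the 2 genes most correlated with each member; of these, a selection is described, and some are not reported here. Same-numbered libraries of different groups deviated together in 4 of 9 pairs (r over 0.1; range -0.389 to 0.5), so the numbers were not taken as pairs. Alternatives covered the pseudocount, low-value filter, library total, mitochondrial genes, quantile normalization, array weights, samples fitted, a replicate block and left-out libraries.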

Additional observations from a re-analysis of the deposited data

How the results depend on the processing

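With 3 libraries a group and unknown depth, the directions of Insig1, Srebf1, Srebf2 and Mbtps2 turned on single libraries in at least 1 comparison. Of 396 alternative values of the members, 373 kept direction and side of the threshold, 1 became a call (Mbtps1, MCF-10A EV against PBS, array weights; members called 1) and 22 changed sign; of 885 for other named genes, 7 changed sign and 2 became calls (Mtor and Scd1, MCF-10A EV against PBS, array weights). The cause was not tested.

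Quantile normalization, which moved the median of all genes by -0.17 for MDA-MB-231 EV against PBS, turned that comparison's Srebf1 (-0.11), Srebf2 (-0.0395), Sqle (-0.0404), Fasn (-0.0556) and Spring1 (-0.032). Array weights turned Insig1 (-0.18), Srebf1 (-0.0025), Srebf2 (-0.11) and Sqle (-0.34) for MDA-MB-231 EV against PBS, Insig1 (0.35) for MDA-MB-231 EV versus MCF-10A EV, and Insig1 (-0.53), Insig2 (-0.0126) and Dhcr7 (-0.22) for MCF-10A EV against PBS. Without both PBS 1 and MDA-MB-231 EV 3, Mbtps2 (-0.0421) and Sqle (-0.0089) turned for MDA-MB-231 EV against PBS and Insig1 (0.0265) for MDA-MB-231 EV versus MCF-10A EV.

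Leaving out 1 library at a time gave -0.55 to 0.88 for Insig1, -0.53 to 0.74 for Srebf1, -0.0548 to 0.48 for Mbtps2 and -0.10 to 0.55 for Sqle for MDA-MB-231 EV against PBS. It gave -0.78 to 0.64 for Insig1 and -0.86 to 0.40 for Srebf1 for MDA-MB-231 EV versus MCF-10A EV, and -0.0106 to 0.54 for Insig1, -0.0921 to 0.56 for Srebf1 and -0.50 to 0.0495 for Srebf2 for MCF-10A EV against PBS. Between 0 and 1 ratios passed.

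The count of genes called for MDA-MB-231 EV against PBS was 28 without both libraries and 0 to 24 with 1 left out (24 without PBS 1), against 0 over all libraries. For MDA-MB-231 EV versus MCF-10A EV (28) it was 11 with no filter, 17 at a mean of 5 TPM, 46 with array weights, 17 with only those groups and 13 to 31 with 1 left out (13 without MCF-10A EV 3). For MCF-10A EV against PBS (25) it was 40 with a pseudocount of 0.1, 12 with no filter, 548 with array weights, 66 with only those groups, 85 without both libraries and 14 to 59 with 1 left out (14 without MCF-10A EV 3, 59 without MDA-MB-231 EV 3). The replicate block gave 15 calls for MDA-MB-231 EV versus MCF-10A EV and called no member; the numbers did not pair the libraries. A mean of 5 TPM leaves out Mbtps2.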
